A study of Homo sapiens with 6 samples.

Results

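The proteasome is the protease that degrades proteins tagged with ubiquitin chains. Its core particle is a barrel of alpha and beta rings in which PSMB5, PSMB6 and PSMB7 carry the catalytic sites. A regulatory particle, made of a base with ATPase subunits and a lid, binds ubiquitin chains, removes them and unfolds the substrate. Activators such as PA28 and PA200 can take its place at the ends of the core, and dedicated chaperones build the particles. When proteasome activity is limiting, the transcription factor NFE2L1 raises transcription of many subunit genes together, through antioxidant response elements in their promoters.

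The genes described here are 40 constitutive proteasome genes, chosen by symbol from the 56638 rows of the count table: 7 core alpha, 7 core beta, 6 base ATPase, 4 other base, 8 lid, 5 activator or inhibitor and 3 assembly genes. All 40 were found and all 40 passed the filter on low counts. The libraries hold poly(A) RNA of the established leukaemia line MOLM-13 (acute myeloid, with monocytic features), treated for 24 h with 2 µM UC-764864, which the series title calls an inhibitor of UBE2N, or with DMSO, the solvent. UBE2N is a ubiquitin-conjugating enzyme whose chains signal rather than mark proteins for the proteasome. Libraries UDI0051, UDI0052 and UDI0053 belong to the UC-764864 group and UDI0054, UDI0055 and UDI0056 to the DMSO group. There is 1 cell line, 1 dose and 1 time. Nothing in the labels states whether the 3 libraries of a treatment are separate cultures, so the p-values reflect spread among libraries that could be technical.

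Total counts were 17073654 to 25014437 per UC-764864 library and 16136156 to 24511499 per DMSO library. The myeloid markers CD33 and LYZ stood at 126 to 135 and 5200 to 6310 CPM (counts scaled to library size) in UC-764864 libraries and 105 to 112 and 3140 to 3370 CPM in DMSO libraries, while CD3E, CD79A, HBB, COL1A1 and EPCAM were at 0 to 1.08 CPM and MS4A1 and HBA1 at 0. KRT18, an epithelial keratin, stood at 11.8 to 16.4 CPM. Other myeloid markers went the other way: ITGAM was at 13.3 to 18.6 CPM in UC-764864 libraries and 31.8 to 35.2 CPM in DMSO libraries, and CSF1R at 28.9 to 38.0 CPM in UC-764864 libraries and 48.9 to 54.3 CPM in DMSO libraries. HOXA9, a gene of immature leukaemic cells, was at 56.2 to 70.2 CPM in UC-764864 libraries and 100 to 115 CPM in DMSO libraries, and the part of these marker differences in the results below was not tested. UBE2N itself had 146 to 170 CPM in UC-764864 libraries and 179 to 214 CPM in DMSO libraries, and its transcript says nothing of the enzyme's activity. Unbroken runs of zeros cover 3799 genes of UDI0055, which were read as missing. None of the 40 genes lies among them, so each has a count in all 6 libraries. UDI0052 and UDI0056, 1 library of each treatment, stood apart on the second principal component and had 5.47% and 5.80% of their counts in the tenth of genes with the highest GC content, against 6.85% to 8.13% in the other libraries.

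Proteasome genes were mostly higher after UC-764864, by small amounts. Of the 40, 9 rose and 0 fell (edgeR quasi-likelihood test, Benjamini-Hochberg adjusted p under 0.05 over 13490 genes), which is 22.5%, against 5.11% of all genes tested called higher and 8.13% called lower. At an unadjusted p under 0.05 the counts were 23 higher and 1 lower, against 14.9% and 16.6% of all genes. DESeq2 called 12 higher and 1 lower (904 and 1311 over all genes, 3.72% and 5.39% of the 24326 rows with any count). Those rows include ones with low counts that DESeq2 can leave without an adjusted p. These 2 shares are thus not on the same base as shares of the 13490 filtered genes. With limma voom 9 were higher and 0 lower (706 and 1013 over all genes, 5.23% and 7.51% of 13490). The log2 fold change of UC-764864 over DMSO was above 0 for 34 of the 40 genes, ranged from −0.41 to 0.66 and had a median of 0.29, beside 0.01 over all genes tested. In bulk RNA, more cells of a type and more RNA per cell cannot be told apart.

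In 26 of the 40 genes every UC-764864 library lay above every DMSO library, and in 1 gene, POMP, every one lay below. Over all genes tested these shares were 19.0% and 17.0%. The proteasome genes together held 0.623%, 0.633% and 0.586% of the tested counts in UDI0051, UDI0052 and UDI0053, against 0.540%, 0.537% and 0.517% in UDI0054, UDI0055 and UDI0056. The summed share was thus higher in each treated library than in any control, without overlap.

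The number of genes called higher depended on single libraries, as it did over all genes. It was 0 without UDI0051 (0.452% of all genes called higher), 5 without UDI0052 (2.12%), 3 without UDI0053 (1.19%), 1 without UDI0054 (0.69%), 16 without UDI0055 (11.1%) and 7 without UDI0056 (3.71%), while the median log2 fold change of the 40 genes stayed at 0.21 to 0.31 over all settings run. Scaling by library size alone gave 7 genes called higher and 1 lower (3.77% and 9.42% of all genes). Without both UDI0052 and UDI0056, 6 were called higher and 1 lower (4.07% and 8.98%). With the rows at 0 in UDI0055 read as counts, 0 were called (0.157% of all genes called higher), the 9 genes then having adjusted p of 0.0645 to 0.116.

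**Figure D1:**
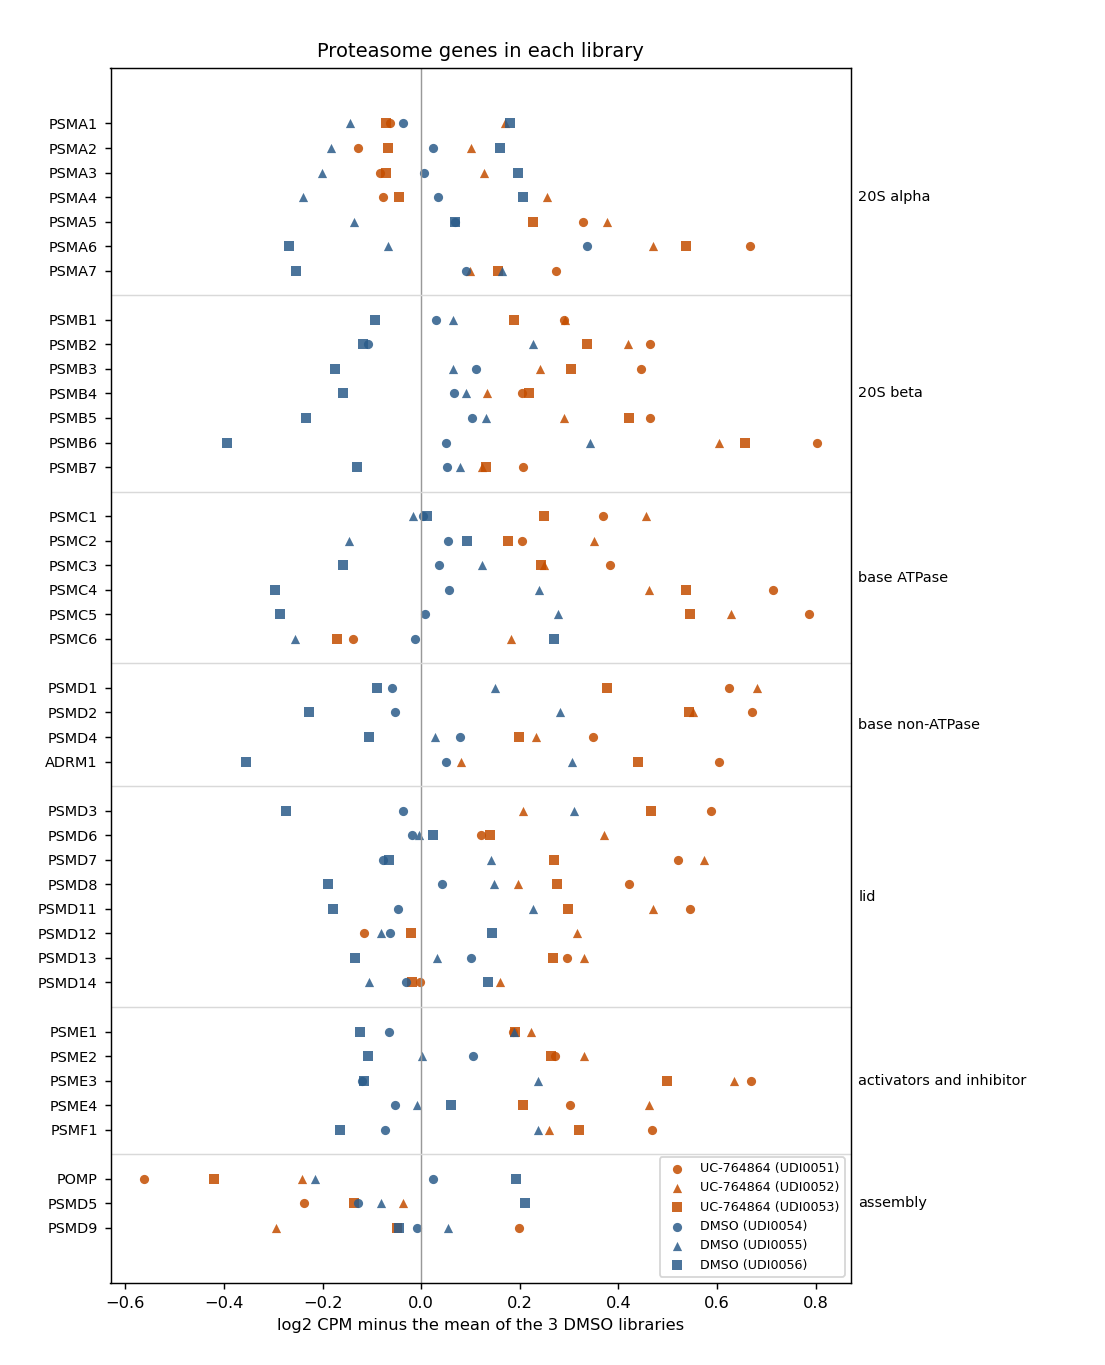
Each row is a proteasome gene, grouped by its place in the particle; the horizontal axis is log2 CPM minus the mean of the 3 DMSO libraries, with UC-764864 libraries in orange and DMSO libraries in blue and a symbol for each library. In all 7 beta genes the orange points lie to the right of the blue ones, while in the first 4 alpha genes they mix, and POMP is the gene whose orange points all lie to the left.

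Promoters were searched because subunit genes can rise together through NFE2L1. RefSeq (GRCh38.p14) gave windows for 35 of the 40 genes, and the 250 bases before each annotated start were read. PSMA7, PSMB1, PSMB6, PSMB7 and PSMD4 had no window. The core of the antioxidant response element, TGACNNNGC on either strand, stood in a window of 11 of the 35 genes (31.4%) and of 2333 of 15843 protein-coding genes (14.7%). It stood in 1 of the 8 genes with a window that rose (12.5%), PSMC5, and in 10 of the 27 that did not pass (37%). In PSMC5, and in PSMA4 among those that did not pass, the match lay only before the most downstream annotated start. CCAAT on either strand stood in 16 of the 35 (45.7%) and in 40.2% of protein-coding genes. No gene here had the 2 motifs overlapping. A match is a string of letters and not a bound site, and no test was made of these shares. Shown are the last 120 bases before the start, 5′ to 3′ on the gene's strand, for the genes with 1 annotated start and TGACNNNGC in that stretch, and, for contrast, for PSME3, the gene with the smallest p, and POMP, the gene with the lowest fold change, which lack it. Capitals mark TGACNNNGC or CCAAT on either strand.
PSMB3 (core beta; chr17:38752621-38752740, + strand): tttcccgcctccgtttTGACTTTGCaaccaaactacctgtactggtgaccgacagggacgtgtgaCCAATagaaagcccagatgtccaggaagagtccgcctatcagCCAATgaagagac
PSMD3 (lid; chr17:39980687-39980806, + strand): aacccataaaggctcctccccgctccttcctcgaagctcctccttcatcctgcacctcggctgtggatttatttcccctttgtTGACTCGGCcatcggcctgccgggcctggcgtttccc
PSME1 (activator; chr14:24136074-24136193, + strand): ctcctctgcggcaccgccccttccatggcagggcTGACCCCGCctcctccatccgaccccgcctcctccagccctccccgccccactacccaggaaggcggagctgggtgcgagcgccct
PSME4 (activator; chr2:53970994-53971113, − strand): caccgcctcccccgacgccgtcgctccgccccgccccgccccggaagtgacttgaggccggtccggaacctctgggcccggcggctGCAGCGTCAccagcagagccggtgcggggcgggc
PSMD9 (assembly; chr12:121888670-121888789, + strand): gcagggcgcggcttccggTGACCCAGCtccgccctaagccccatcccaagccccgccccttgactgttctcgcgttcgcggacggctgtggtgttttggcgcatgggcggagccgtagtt
PSME3 (activator; chr17:42833277-42833396, + strand): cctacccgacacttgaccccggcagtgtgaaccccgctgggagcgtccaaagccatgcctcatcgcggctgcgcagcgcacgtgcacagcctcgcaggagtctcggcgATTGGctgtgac
POMP (assembly; chr13:28659010-28659129, + strand): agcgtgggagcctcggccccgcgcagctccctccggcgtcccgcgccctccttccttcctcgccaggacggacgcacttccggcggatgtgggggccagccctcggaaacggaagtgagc

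Of the 7 beta genes of the core, 1 passed and none had a log2 fold change below 0. The 7 had a median log2 fold change of 0.33 (range 0.15 to 0.66), and in each of them the UC-764864 libraries lay above the DMSO libraries. With the GC trend of each library removed the median was 0.17, with PSMB7 at 0.0039 and PSMB4 at 0.03. PSMB6, which encodes the caspase-like catalytic subunit, had 119, 104 and 108 CPM in the UC-764864 libraries UDI0051 to UDI0053, against 70.8, 86.7 and 52.1 CPM in the DMSO libraries UDI0054 to UDI0056. It rose 1.58-fold (log2 fold change 0.66 ± 0.16 (SE), adjusted p = 0.0256), the largest fold change of the 40 genes, and UDI0056 was its lowest library. PSMB5, the chymotrypsin-like subunit, had 105, 93.4 and 102 CPM against 82.0, 83.7 and 65.0 CPM, a log2 fold change of 0.38 ± 0.13 that did not pass (adjusted p = 0.0659). PSMB7, the trypsin-like subunit, had 137, 129 and 130 CPM against 123, 125 and 108 CPM (0.15 ± 0.11, adjusted p = 0.371). All 3 catalytic genes were thus without overlap, PSMB7 by the narrowest gap, 129 CPM in UDI0052 against 125 CPM in UDI0055. PSMB2, a structural subunit, was at 0.40 ± 0.12 (adjusted p = 0.0539). PSMB6 no longer passed when UDI0051, UDI0053 or UDI0054 was left out (adjusted p = 0.102, 0.0723 and 0.0892), and PSMB2 and PSMB5 passed without UDI0055 (adjusted p = 0.00924 and 0.0326).

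The alpha genes, which form the outer rings and the gate of the core, were split. PSMA1, PSMA2, PSMA3 and PSMA4 had log2 fold changes of −0.04 to 0.04, with mixed libraries. PSMA2 had 191, 224 and 199 CPM in UC-764864 libraries, against 212, 184 and 233 CPM in DMSO libraries. The spread within each group was wider than the difference of means. PSMA6 had 43.9, 38.3 and 40.2 CPM against 34.9, 26.4 and 22.9 CPM and was the alpha gene that rose, 1.45-fold (0.54 ± 0.16, adjusted p = 0.0426). PSMA5 had no overlap either, 172, 178 and 161 CPM against 144, 125 and 144 CPM, and did not pass (0.31 ± 0.11, adjusted p = 0.0849), and PSMA7 overlapped (0.17 ± 0.13, adjusted p = 0.403). The group's median was 0.04 and its sign depended on the setting: it was −0.01 with library size as the only scaling, −0.10 without UDI0052, −0.06 without UDI0055 and 0.13 with the GC trend removed, where the beta median was 0.17. PSMA6 is uncertain. Its exons share 919 bases with AL121594.1 on the same strand, which had a mean of 0.1667 counts beside 685.5 for PSMA6. What this overlap did to the PSMA6 counts was not tested. A processed copy, PSMA6P1, had 76 to 125 counts in UC-764864 libraries and 137 to 166 in the DMSO libraries UDI0054 and UDI0056. The PSMA6P1 row is missing in UDI0055. The PSMA6 call was lost without UDI0051 (adjusted p = 0.17), UDI0052 (0.0698), UDI0053 (0.106), UDI0055 (0.0607) or UDI0056 (0.0645). It was also lost without both UDI0052 and UDI0056 (0.0569) and with library size only (0.0607).

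In the base of the regulatory particle, the hexamer of ATPases that unfolds and threads the substrate had 3 of 6 genes that rose, with a median of 0.32. PSMC5 had 148, 132 and 125 CPM in UC-764864 libraries, against 86.1, 104 and 70.2 CPM in DMSO libraries (1.56-fold, 0.64 ± 0.15, adjusted p = 0.0187). PSMC4 had 123, 104 and 109 CPM against 78.3, 88.8 and 61.2 CPM (1.47-fold, 0.56 ± 0.14, adjusted p = 0.029). For both, every treated library was above every control, with UDI0056 the lowest. PSMC1 had 165, 175 and 152 CPM against 128, 126 and 129 CPM (1.28-fold, 0.36 ± 0.11, adjusted p = 0.0473), the tightest control group of the 3. PSMC2 and PSMC3 had no overlap and did not pass (0.24 and 0.29, adjusted p = 0.173 and 0.114), unlike PSMC6, which had 114, 143 and 112 CPM against 124, 105 and 151 CPM, with mixed libraries (−0.05 ± 0.15, adjusted p = 0.85). PSMC5 is uncertain, because its exons share 874 bases with FTSJ3 on the other strand in GENCODE release 29, and FTSJ3, with a mean of 2095 counts beside 2209 for PSMC5, was itself called higher (0.78, adjusted p = 0.00869). Whether the counting used the strand is not given in the sources used here. PSMC5 no longer passed without UDI0051 or UDI0054 (adjusted p = 0.093 and 0.0757), nor PSMC4 when UDI0051, UDI0053 or UDI0054 was left out (0.141, 0.0799 and 0.0926). PSMC1 was lost without UDI0051, UDI0052, UDI0053, UDI0054 or UDI0056 (adjusted p = 0.204, 0.149, 0.0945, 0.144 and 0.0593), with no filter (0.0797), without both UDI0052 and UDI0056 (0.0773), and when scaled by RLE factors (0.0618) or library size only (0.0756). Its exons share 4671 bases with NRDE2 on the other strand, which had a mean of 395.8 counts beside 2863 for PSMC1 and did not pass (0.19, adjusted p = 0.297). PSMC3 passed without UDI0055 (0.0485).

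Of the base subunits without ATPase activity, the scaffold genes PSMD1 and PSMD2 rose and the ubiquitin receptor genes PSMD4 and ADRM1 did not pass. The 4 had the highest median of any subgroup, 0.46. PSMD1 had 193, 200 and 162 CPM in UC-764864 libraries, against 120, 139 and 117 CPM in DMSO libraries (1.48-fold, 0.56 ± 0.12, adjusted p = 0.0165). PSMD2 had 290, 267 and 266 CPM against 176, 221 and 156 CPM (1.49-fold, 0.57 ± 0.14, adjusted p = 0.0209). The groups did not overlap for either scaffold gene. PSMD4, the receptor known as RPN10, had 188, 173 and 169 CPM against 155, 150 and 137 CPM (0.26 ± 0.11, adjusted p = 0.131). ADRM1, the receptor known as RPN13, had 147, 102 and 131 CPM against 100, 119 and 75.4 CPM, with UDI0052 inside the range of the controls (0.37 ± 0.18, adjusted p = 0.178). PSMD1 was lost without UDI0051, UDI0052 or UDI0054 (adjusted p = 0.0858, 0.0513 and 0.0757), and PSMD2 when UDI0051, UDI0053 or UDI0054 was left out (0.0991, 0.0625 and 0.0906), while ADRM1 passed without UDI0055 (0.0446).

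All 8 lid genes had a log2 fold change above 0 (median 0.29, range 0.05 to 0.46), and 1 of them passed. PSMD7, the partner of the deubiquitinase subunit in the lid, had 180, 187 and 151 CPM in UC-764864 libraries, against 119, 139 and 120 CPM in DMSO libraries (1.37-fold, 0.46 ± 0.12, adjusted p = 0.0328). PSMD11, which helps to join core and regulatory particle, had 114, 108 and 96.1 CPM against 75.7, 91.4 and 69.0 CPM and missed the threshold (0.43 ± 0.13, adjusted p = 0.0515). Both had no overlap between groups. PSMD14, the deubiquitinase that removes ubiquitin chains, had 116, 130 and 115 CPM against 114, 108 and 128 CPM (0.05 ± 0.12, adjusted p = 0.818). Its libraries were mixed. With the GC trend taken from the longest transcript, a setting added after seeing the data, PSMD14 stood at 0.71 and passed (adjusted p = 0.00125), beside 0.37 for PSMD7, so their order depended on that setting. PSMD3, PSMD6, PSMD8 and PSMD13 lay at 0.22 to 0.41 and PSMD12 at 0.07, with adjusted p of 0.0929 to 0.762. PSMD7 was lost without UDI0051, UDI0052, UDI0053 or UDI0054 (adjusted p = 0.157, 0.102, 0.0519 and 0.132) and without both UDI0052 and UDI0056 (0.0764), and PSMD3, PSMD8 and PSMD11 passed without UDI0055 (0.0149, 0.0452 and 0.0115).

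**Figure D2:**
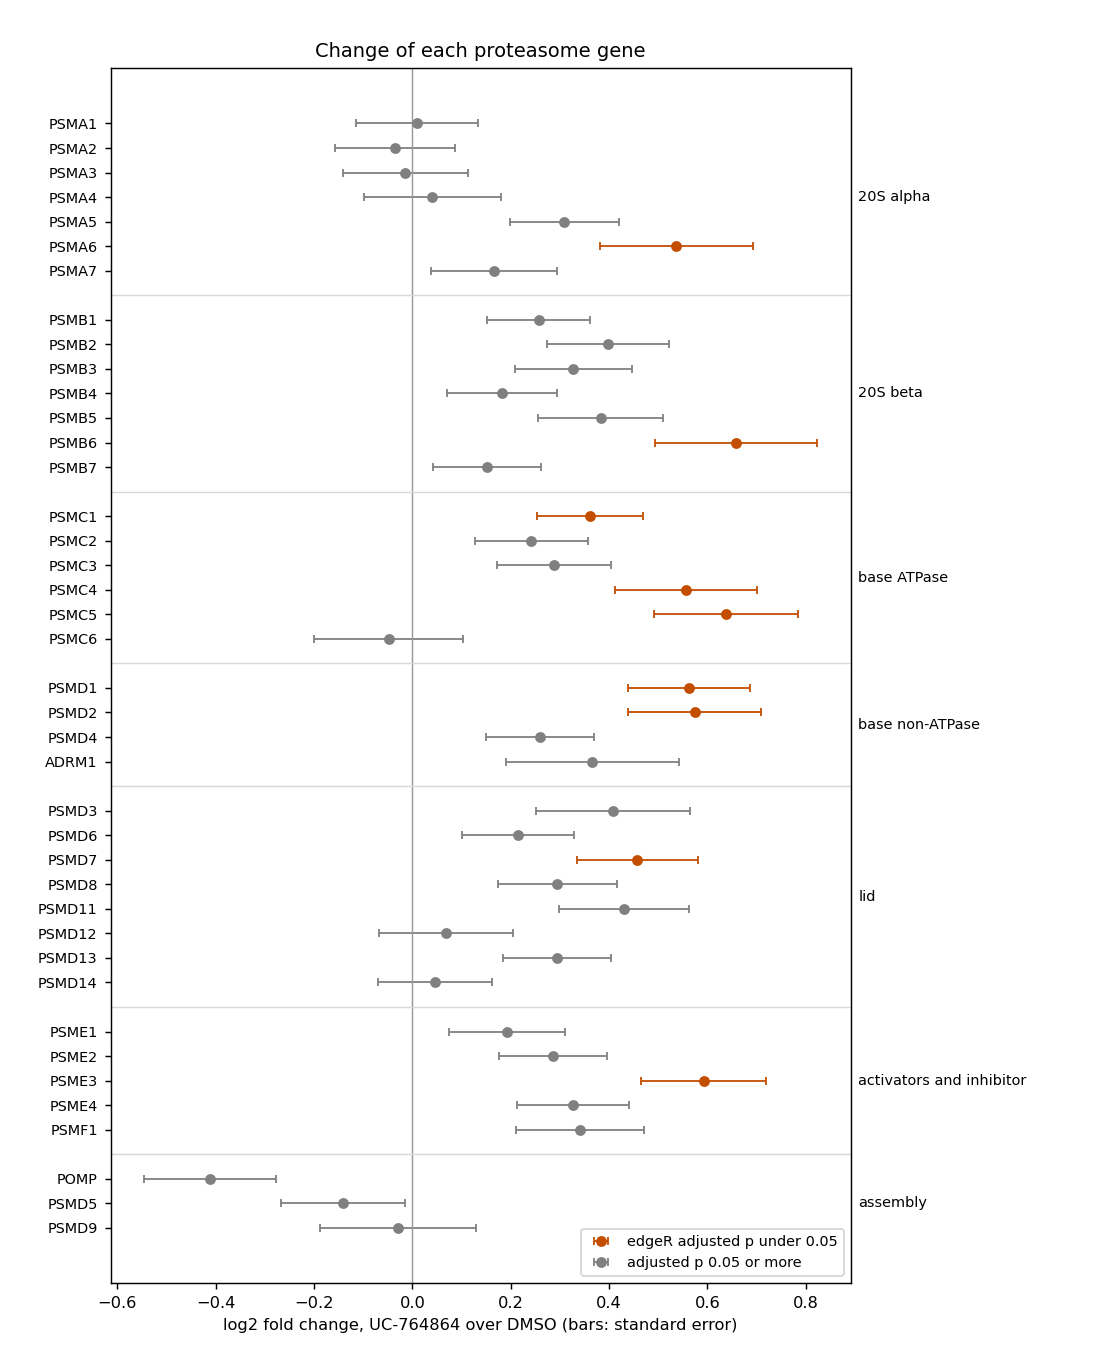
Each point is the log2 fold change of a proteasome gene, UC-764864 over DMSO, with its standard error, grouped by place in the particle; orange marks the 9 genes with an edgeR adjusted p under 0.05. Values run from −0.41 for POMP to 0.66 for PSMB6, and the orange points come from 6 of the 7 subgroups.

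The activators held the gene with the smallest p of the 40. PSME3 encodes PA28 gamma, the nuclear activator that works without ubiquitin. It had 233, 227 and 207 CPM in UC-764864 libraries, against 135, 173 and 135 CPM in DMSO libraries, a rise of 1.51-fold (0.59 ± 0.13, adjusted p = 0.0153). No library overlapped, the closest pair being UDI0053 and UDI0055. PSME1 and PSME2 encode PA28 alpha and beta, the interferon-inducible activator of antigen processing. PSME1 had 98.4, 101 and 98.6 CPM against 82.7, 98.6 and 79.3 CPM (0.19 ± 0.12, adjusted p = 0.288). PSME2 had 120, 125 and 120 CPM against 107, 99.9 and 92.6 CPM (0.29 ± 0.11, adjusted p = 0.1). Neither passed, and whether they differ from PSME3 was not tested. PSME4, the PA200 activator, stood at 0.33 ± 0.11 and PSMF1, the inhibitor PI31, at 0.34 ± 0.13 (adjusted p = 0.0767 and 0.0983), both without overlap. PSME3 was lost without UDI0051 or UDI0054 (adjusted p = 0.0781 and 0.0747), and PSMF1 passed without UDI0055 (0.0166). Exons of PSME3 share 300 bases with BECN1 on the other strand, which had a mean of 1328 counts and did not pass (0.27, adjusted p = 0.137).

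All 3 assembly genes had a log2 fold change below 0 in the comparison as run, and none passed. POMP, the chaperone that brings the beta subunits together in the maturing core, had 132, 165 and 146 CPM in UC-764864 libraries, against 199, 168 and 223 CPM in DMSO libraries. All treated libraries lay below all controls, but UDI0052 and UDI0055 nearly met. Its log2 fold change was −0.41 ± 0.13 and did not pass (adjusted p = 0.0623). It passed as lower with DESeq2 (adjusted p = 0.0313), with library size only (0.0494), with no filter (0.0226), without UDI0055 (0.0157) and without both UDI0052 and UDI0056 (0.0304). With the GC trend of each library removed its value was 0.20 and did not pass (adjusted p = 0.112), so its direction depended on that setting. PSMD5 and PSMD9, chaperones of the base, stood at −0.14 ± 0.13 and −0.03 ± 0.16 (adjusted p = 0.472 and 0.916), both with mixed libraries. The sign of PSMD9 depended on the setting. Its value was 0.05 without UDI0052, 0.0011 without UDI0055 and 0.04 without both UDI0052 and UDI0056. PSMD9 had 9.15, 6.47 and 7.68 CPM in UC-764864 libraries, against 7.91, 8.26 and 7.71 CPM in DMSO libraries, the lowest counts of the 40 genes. Its exons share 436 bases with WDR66 on the same strand, which had a mean of 9.333 counts beside 157.8 for PSMD9. What this overlap did to its counts was not tested.

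**Figure D3:**
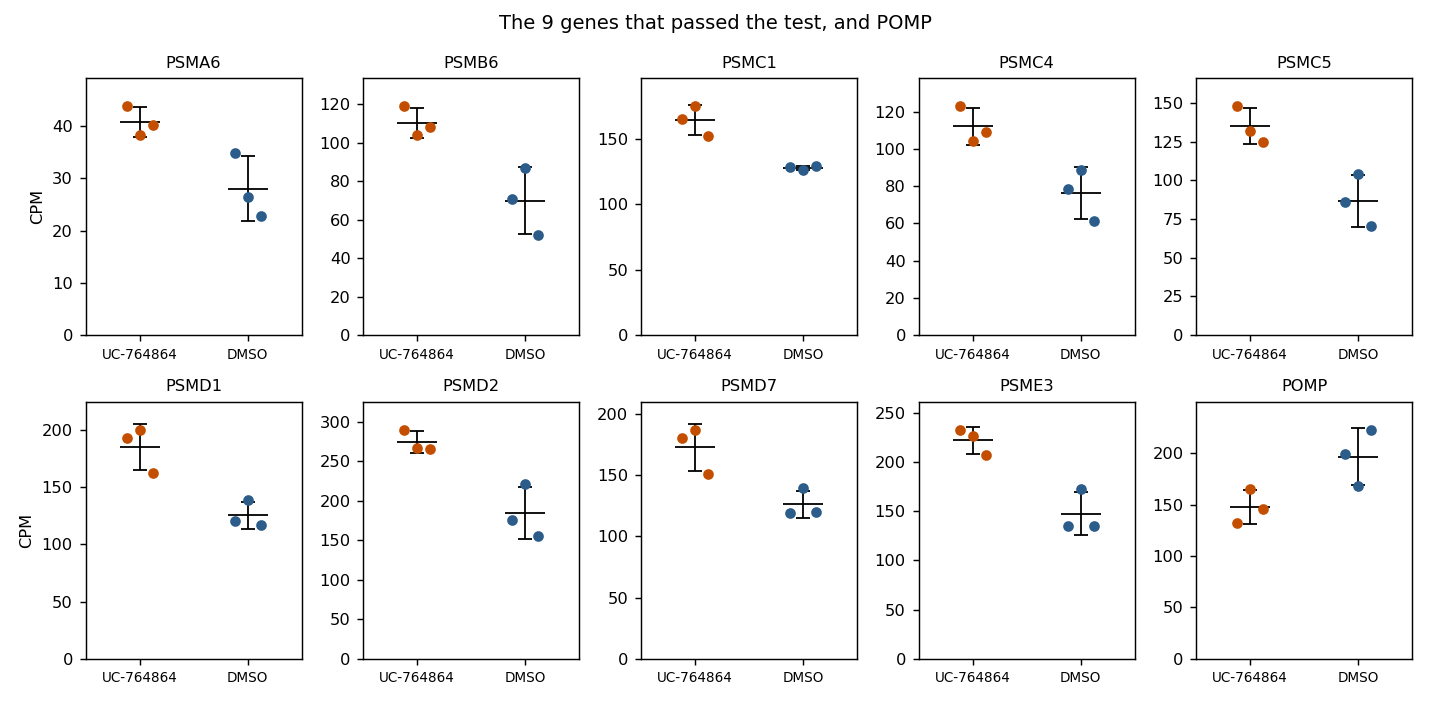
CPM in each library for the 9 genes that rose and for POMP, UC-764864 left of DMSO; points are libraries, the horizontal line is the mean and the bar 1 SD (n = 3 each), on axes that start at 0. The treated libraries lie above the controls in the first 9 panels and below them for POMP, where 165 CPM in UDI0052 comes close to 168 CPM in UDI0055.

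The fold changes moved with GC content. Over the 40 genes, the log2 fold change and the GC content of the transcript had a Pearson correlation of 0.524 and a Spearman correlation of 0.466, against 0.204 and 0.255 over 11656 tested genes with a GC value. These genes share the same 6 libraries, so the values are a description. POMP had the lowest GC content of the 40, 34.0%, and the lowest fold change, while PSMB6 had 54.9% and the highest. With each library's trend of counts on GC content removed, the correlation over the 40 was −0.12 and 19 genes were called higher and 0 lower, the 9 above among them. Of all genes, 1915 were then called higher and 1821 lower, 16.4% and 15.6% of 11656. As run, these shares were 5.11% and 8.13%, so a larger share of calls in this setting is not particular to the proteasome. The 19 of 40 proteasome genes called higher stand beside 16.4% of all genes.

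In that setting the AT-rich genes differed most from the comparison as run. PSMA5, at 37.2% GC, had a log2 fold change of 0.68 ± 0.10 (adjusted p = 4.4e-04). PSMC6, at 36.8%, changed sign to 0.37 ± 0.07 and passed (adjusted p = 0.00215). PSMC2 (38.9%), PSMD12 (37.9%) and PSME4 (41.5%) also passed, at 0.50, 0.38 and 0.42. GC-rich ADRM1, at 64.2%, passed as well (0.40 ± 0.08, adjusted p = 0.00227), with PSMB2, PSMB5, PSMD3 and PSMD11. PSMA1, PSMA2, PSMA3, PSMA4 and PSMA7 did not pass in either setting.

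**Figure D4:**
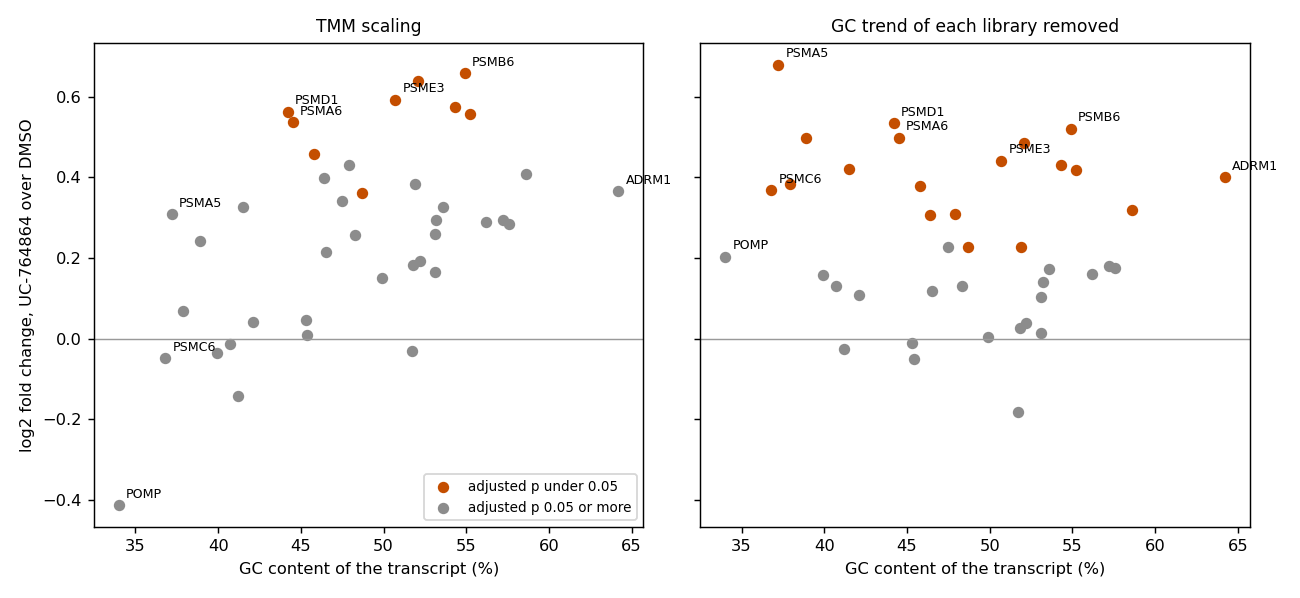
Log2 fold change of UC-764864 over DMSO against GC content of the principal transcript for the 40 genes, with TMM scaling on the left and with each library's GC trend removed on the right; orange marks adjusted p under 0.05. On the left values climb with GC content, from POMP to PSMB6, with 9 orange points; on the right there are 19, and POMP lies above 0.

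Other genes of the pathway were taken from lists of related factors. The immunoproteasome genes PSMB8, PSMB9 and PSMB10, which replace the catalytic beta subunits in interferon-exposed cells, had 0 of 3 called in either direction, 0 at an unadjusted p under 0.05. Their log2 fold changes were −0.21, −0.41 and −0.21 (edgeR adjusted p = 0.223, 0.169 and 0.419). PSMB8 had 73.7, 76.5 and 81.0 CPM in UC-764864 libraries, against 92.8, 93.6 and 81.3 CPM in DMSO libraries, without overlap by a narrow gap between UDI0053 and UDI0056. The groups overlapped for PSMB9 (5.77, 3.56 and 4.89 against 6.54, 6.87 and 5.54 CPM) and PSMB10 (45.2, 33.8 and 45.7 against 53.9, 53.6 and 36.8 CPM). Counts of PSMB9 were low, 55 to 168 per library. All 3 thus lay below 0 where the 7 constitutive beta genes lay above it, a contrast that was not tested. With the GC trend removed all 3 passed as lower, at −0.36, −0.54 and −0.28 (adjusted p = 0.0025, 0.015 and 0.0269). In that setting 15.6% of all genes were called lower.

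Among 12 genes tied to NFE2L1, 1 rose and 1 fell, 8.33% each way, which is near the 5.11% and 8.13% of all genes. VCP, the segregase that extracts proteins and NFE2L1 from the ER membrane, had 457, 416 and 405 CPM in UC-764864 libraries, against 304, 364 and 285 CPM in DMSO libraries (1.34-fold, 0.42 ± 0.12, adjusted p = 0.0404). Its cofactor UFD1, listed as UFD1L, was at 0.37 ± 0.11 (adjusted p = 0.051). DDI2, the protease that activates NFE2L1, was at 0.37 ± 0.12 and NFE2L1 itself at 0.34 ± 0.12 (adjusted p = 0.0552 and 0.0703). NFE2L1 had 183, 160 and 169 CPM against 139, 144 and 121 CPM, without overlap. Of the 12 genes, 8 had a log2 fold change above 0 and 4 below. AKIRIN2 stood at −0.22 with every treated library below every control, and NGLY1 at −0.04 with mixed libraries. Neither passed (edgeR adjusted p = 0.235 and 0.848). MAFF, a small MAF partner, had 3.88, 5.11 and 5.21 CPM against 8.09, 7.57 and 8.24 CPM and fell (−0.76 ± 0.16, adjusted p = 0.0159). VCP was lost without UDI0051, UDI0052, UDI0053, UDI0054 or UDI0056 (adjusted p = 0.201, 0.08, 0.0931, 0.146 and 0.0801), with library size only (0.052) and without both UDI0052 and UDI0056 (0.0738), and MAFF without UDI0051 or UDI0054 (0.0991 and 0.0595). With all rows as deposited neither passed (0.101 and 0.058).

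Of 9 tested genes for ubiquitin and its shuttles 1 rose (11.1%), beside 5.11% of all genes called higher, and no test was made of these shares. The gene was UBQLN4, a shuttle that carries substrates to the proteasome. It had 97.5, 78.0 and 84.5 CPM in UC-764864 libraries, against 57.3, 67.7 and 56.8 CPM in DMSO libraries (0.52 ± 0.13, adjusted p = 0.0255). It no longer passed when UDI0051, UDI0053 or UDI0054 was left out (adjusted p = 0.156, 0.0766 and 0.109), nor with all rows as deposited (0.0764). The polyubiquitin gene UBB stood at 0.34 (adjusted p = 0.0844), and UBA6, a ubiquitin-activating enzyme, at −0.47 (0.06). UBA6 passed as lower with DESeq2 (0.0294), library size only (0.049), no filter (0.0108), without UDI0052 (0.0397), UDI0055 (0.0261) or both UDI0052 and UDI0056 (0.014), and stood at 0.02 (0.867) with the GC trend removed. Of 7 proteasome-bound factors 0 were called (edgeR), 2 being higher at an unadjusted p under 0.05, beside 14.9% of all genes. The strongest were ECPAS, listed as KIAA0368, at 0.29, and UBE3C, a chain-extending ligase, at 0.31 (adjusted p = 0.0811 and 0.0981). The small lid subunit SEM1, listed as SHFM1, was at 0.24 (0.216). Of 5 tested assembly factors outside the 40 genes 0 were called, and 1 was higher at an unadjusted p under 0.05, beside the same 14.9%. It was PAAF1, at 0.31 (adjusted p = 0.14). PSMG3 stood at 0.25 and PSMG2 at −0.21 (0.213 and 0.281).

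PSMD10, the base chaperone gankyrin, the ubiquitin-activating enzyme UBA1 and the shuttle gene UBQLN2 have rows missing in UDI0055. PSMD10 had 32.0, 34.7 and 31.9 CPM in UC-764864 libraries, against 46.1 CPM in UDI0054 and 56.6 CPM in UDI0056. UBA1 had 438, 351 and 402 CPM against 310 and 267 CPM. In a fit without UDI0055, chosen after the data were seen, PSMD10 fell by 0.61 ± 0.14 on the log2 scale and UBA1 rose by 0.50 ± 0.13 (edgeR adjusted p = 0.00942 and 0.0164), while UBQLN2, at 0.24 ± 0.13, did not pass (0.204). That fit has 2 control libraries, and called 13 of the 40 genes higher and 1, POMP, lower, against 9.88% and 13.9% of all genes.

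Levels per length, CPM per kilobase of the principal transcript in GENCODE release 29, spanned a wide range. PSMB1 averaged 334 ± 13.5 per kilobase in UC-764864 libraries and 280 ± 15.9 in DMSO libraries (SD, n = 3 each), the highest of the 40. The lowest core gene was PSMA6, at 39.7 ± 2.78 and 27.3 ± 5.99 per kilobase, and the lowest lid genes were PSMD12 and PSMD11, at 21.0 ± 3.42 and 25.9 ± 2.25 in UC-764864 libraries and 20.0 ± 1.78 and 19.2 ± 2.81 in DMSO libraries. PSMD12 and PSMD11 did not differ beyond their spread in DMSO libraries. Annotated lengths may not be those of the transcripts in these cells, which limits such levels. The level of PSMA6 is limited further by the 919 exon bases it shares with AL121594.1 on the same strand. Reads lost to that overlap were not measured, so its place as the lowest core gene is uncertain.

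**Figure D5:**
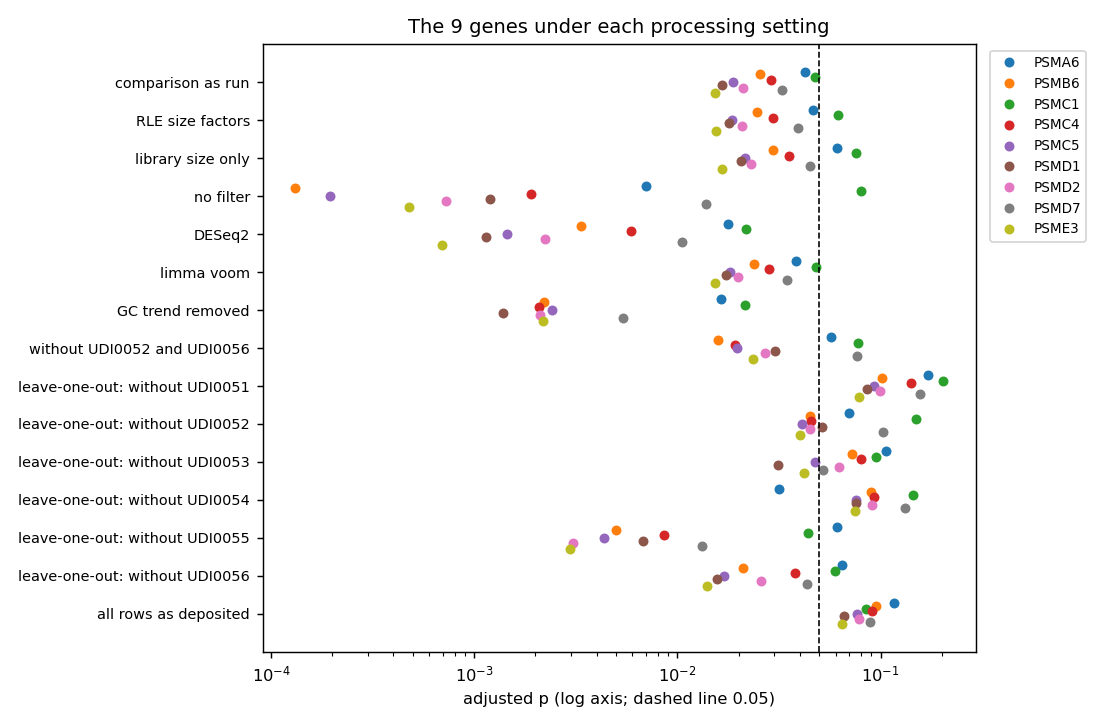
Adjusted p of each of the 9 genes that rose, on a log axis, under the comparison as run and 14 other settings listed down the page; the dashed line is 0.05. All 9 points lie left of the line with DESeq2, limma voom and the GC trend removed, and all 9 lie right of it without UDI0051 and with all rows as deposited.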

How the data were processed

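The authors deposited raw counts of reads per gene, 1 column per library, without normalization. The treatment of each library comes from a second deposited table, which numbers no replicates. FastQC 0.11.7, HISAT2 2.0.5, featureCounts 1.5.2 and GRCh37 are named in the submitters' processing notes, without roles. Whether counting used the strand is not given in the sources used here.

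Rows at 0 in an unbroken run of UDI0055 (at least 10 of its rows with 50 or more counts in each other library) were read as missing, which left 52839 of 56638 rows. After filterByExpr and TMM scaling (factors 0.978 to 1.03), 13490 genes were tested with edgeR 4.0.16 in R 4.3.3 (glmQLFit, glmQLFTest), the model holding treatment alone. SE was derived from the fold change and the F statistic. CPM use TMM-scaled library sizes, except for cell markers, PSMD10, UBA1 and UBE2N, which use library sizes only. A count of 3 corresponds to 0.123 to 0.198 CPM, for counting error only. No 2 libraries came down to sampling noise (chi-square per degree of freedom 4.4 to 78.8). GC content and length come from the APPRIS principal transcript in GENCODE release 29, matched by symbol, with a GC value for 86.4% of tested genes. The fit was tested on simulated data. Alternatives used DESeq2 1.42.0 and limma 3.58.1. Genes named are those that passed, the smallest p and the highest and lowest fold change of each subgroup, the catalytic beta genes, and up to 3 genes of each related list in order of p; others, such as PSMB2, PSMD11, NFE2L1 and DDI2, were added after their values were seen. The genes and lists were chosen with earlier results of these data known.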

Additional observations from a re-analysis of the deposited data

How the results depend on the processing

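No paired analysis was possible because the columns of the count table carry no replicate numbers. The 9 genes called higher became 0 with all rows as deposited, 19 with the GC trend removed and 21 with GC of the longest transcript. That last alternative was added after seeing the data. Over the fits without 1 library the number ranged from 0 to 16. Shares of all genes called higher in those settings were, in that order, 0.157%, 16.4%, 16.1% and 0.452% to 11.1%. The count of genes called lower, 0 as run, was 1 (POMP) with library size only, no filter, DESeq2 and without UDI0052 and UDI0056, and 0 to 1 without 1 library. Over all genes, 690 called higher and 1097 lower became 22 and 125 with all rows as deposited, 62 to 1525 and 278 to 1974 without 1 library, 1915 and 1821 with the GC trend removed and 1882 and 1795 with GC of the longest transcript; with no filter 1676 were lower. PSMC6 changed sign and passed, at 0.37, with the GC trend removed, and PSMA3 did so, at 0.36, with GC of the longest transcript. With GC of the longest transcript PSMD14 moved furthest of the 40 genes, to 0.71 against 0.05 as run. Other genes changed sign in these 2 settings without passing, among them POMP (0.20 and 0.10), PSMA2 (0.16 and 0.09) and PSMA1 (−0.05 and −0.09). The cause of these changes was not tested, except that fits without 1 library hold fewer samples. The 9 genes that rose kept a positive fold change in every setting run, the lowest being 0.22.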
